A study of Mus musculus with 12 samples.

Results

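The LAT signalosome is the adaptor complex that forms at the plasma membrane of mast cells and T cells once their antigen receptors are engaged. The values below concern 10 of its genes: the transmembrane adaptors Lat and Lat2, the cytosolic adaptors Lcp2, Grap2 and Clnk, the phospholipases Plcg1 and Plcg2, the exchange factor Vav1 and the Ras activators Rasgrp1 and Rasgrp4. They were chosen by name, and every probe set (a group of short probes read as 1 value) annotated to one of these symbols alone was taken. This gave 20 probe sets of 45037 on the Affymetrix array, with 4 for Rasgrp1, 3 each for Lat2 and Plcg1, 2 each for Lcp2, Grap2 and Vav1, and 1 each for Lat, Clnk, Plcg2 and Rasgrp4. Of the 20, 19 were bright enough to be among the 27183 tested, and the dimmer Grap2 probe set was not.

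All 12 samples were mast cells grown from femoral bone marrow of C57BL/6 mice. For 6 samples the culture medium held interleukin 3 (IL3, 30 ng/ml) over 4 to 6 weeks, and for the other 6 it also held stem cell factor (SCF, the ligand of the receptor KIT) over that time. The labels give 100 ng/ml for SCF unless stated otherwise, and a culture purity above 99%. They do not say whether replicates came from separate mice or cultures, so the p-values measure the spread between these samples only, which may be technical. The 7 mast cell markers examined, among them Kit, Fcer1a and Cpa3, were bright on every array, and none of the 7 passed the test between the groups. Hdc came nearest to passing, with a mean signal of 4550 in IL3 and 7337 with SCF (limma adjusted p = 0.06025).

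In a resting mast cell LAT and its relative LAT2 (also called NTAL or LAB) wait in the membrane as unphosphorylated scaffolds. Once the IgE receptor is cross-linked, the kinase SYK phosphorylates them, and LAT then recruits GADS (the product of Grap2) with SLP-76 (the product of Lcp2), phospholipase C gamma and VAV1. Phospholipase C gamma cleaves a membrane lipid into IP3, which releases stored calcium, and diacylglycerol, which activates protein kinase C and the RasGRP proteins. These steps carry the signal to degranulation and to Ras.

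With SCF the transcripts of the adaptor Grap2 and of the Ras activator Rasgrp1 fell, that of the adaptor Clnk fell by less, and 1 of the 2 Vav1 probe sets fell. Of the 19 probe sets tested, 6 were lower with SCF, 1 was higher and 12 did not pass (limma, Benjamini-Hochberg adjusted p below 0.05 over all 27183 tested). Among all probe sets tested 13.6% were lower and 17.3% higher, 30.9% in either direction, against 36.8% of these 19. The median log2 fold change was -0.21 over the 19 and 0.04 over all probe sets. In 6 of the 19 the groups did not overlap, all of them lower with SCF. Over all probe sets this held for 16.6% in either direction and for 7.68% with SCF lower. One of these probe sets, Rasgrp1 1450143_at, was tested only through its IL3 arrays, being dim on 5 of 6 SCF arrays, so that its place in the counts of lower and of not overlapping supports nothing; the 5 others were above the dim level on at least 5 arrays of either culture. Dim here means at or below the 40th percentile of the array. Counted by gene, on its brightest probe set, 3 of the 10 fell and 0 rose, where 15.5% of 11435 genes fell and 17.5% rose. In arrays of whole cultures, fewer cells of a type and less RNA per cell cannot be told apart.

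**Figure D1:**
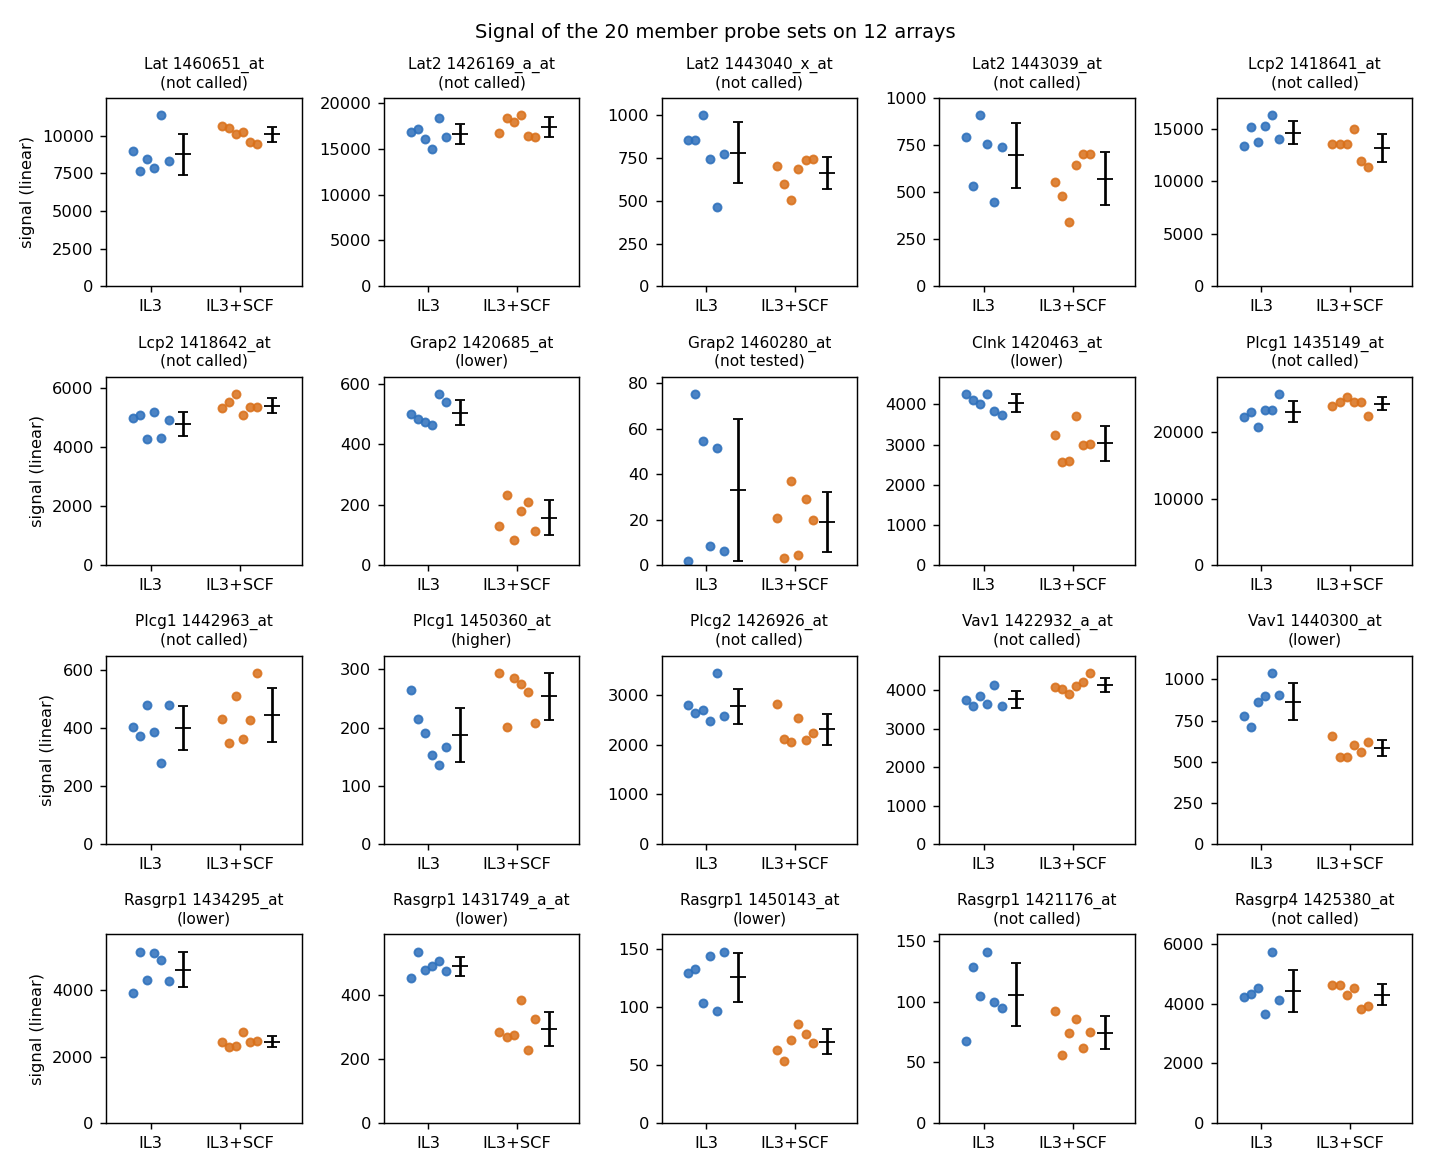
Linear signal of each of the 20 probe sets on the 6 IL3 arrays (blue) and the 6 IL3+SCF arrays (orange), in order of replicate number, with the group mean and SD in black and every axis starting at 0. The groups are apart for Grap2 1420685_at, Clnk, Vav1 1440300_at and the 3 Rasgrp1 probe sets called lower, and they overlap in the other 14 panels.

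**Figure D2:**
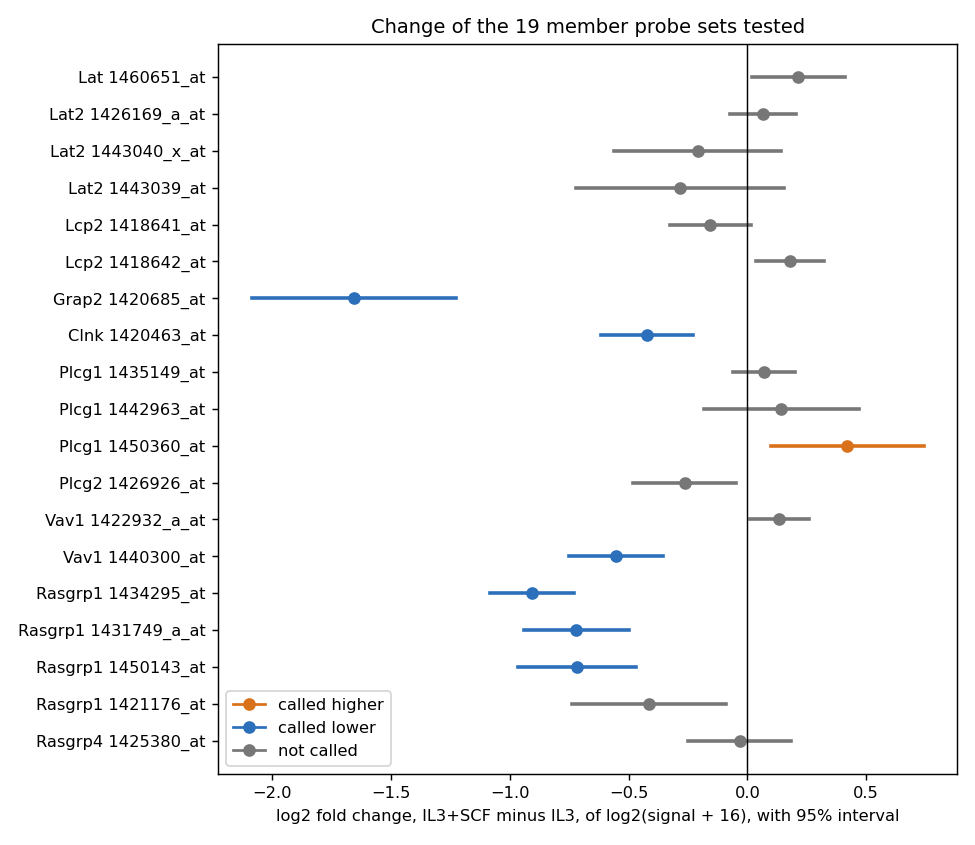
Log2 fold change (IL3+SCF minus IL3) of the 19 probe sets tested, with its 95% interval from limma, coloured by whether the adjusted p was below 0.05. Grap2 stands lowest at -1.66, the 4 Rasgrp1 probe sets lie between -0.91 and -0.42 (1450143_at and 1421176_at near the dim level), and the probe sets of Lat, Lat2, Lcp2 and Rasgrp4 lie between -0.28 and 0.21.

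Lat encodes the central scaffold, whose phosphorylated tyrosines dock phospholipase C gamma 1 and GADS. Its single probe set (1460651_at) had signals from 7655 to 11360 in IL3, with a median of 8379, and from 9438 to 10638 with SCF, with a median of 10173. The highest value of all 12 was IL3 replicate 5, and without that array every SCF value lay above every IL3 value. The log2 fold change was 0.21 ± 0.09 (SE, n = 6 per group, 95% interval 0.02 to 0.41), which did not pass (limma adjusted p = 0.0929). Without IL3 replicate 5 it was 0.29 ± 0.06 and passed (adjusted p = 0.00347, the lowest of its alternatives, which reached 0.284), as it did without IL3 replicates 4 and 5, with array weights and with trend and robust eBayes.

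Lat2 encodes the second scaffold, which binds GRB2 but has no phospholipase C docking site of the LAT kind. Its brightest probe set (1426169_a_at) ranged from 14978 to 18287 in IL3 (median 16572) and from 16235 to 18655 with SCF (median 17275). The groups overlapped almost completely, and the log2 fold change of 0.07 had a 95% interval from -0.07 to 0.20. The other Lat2 probe sets gave negative values, -0.21 for 1443040_x_at (adjusted p = 0.363) and -0.28 for 1443039_at (adjusted p = 0.323), with overlapping groups. The suffix x marks probes that can match other transcripts as well. The difference of each from the brightest probe set did not pass (exact permutation test of the log2 ratio within arrays, two-sided, p = 0.219 and 0.212, adjusted p = 0.246 for both). Without IL3 replicate 5, the array with the lowest signal of 1443040_x_at, that probe set passed at -0.35 (limma adjusted p = 0.0333, in a range from 0.032 to 0.707 over its alternatives).

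Lcp2 encodes SLP-76, the cytosolic adaptor that GADS bridges to LAT. Its probe sets gave opposite signs and neither passed. The brighter (1418641_at) had signals of 13389 to 16313 in IL3 (median 14572) and 11341 to 15027 with SCF (median 13536), a log2 fold change of -0.16 with a 95% interval from -0.33 to 0.02. The dimmer (1418642_at) had 4273 to 5181 in IL3 (median 4949) and 5082 to 5810 with SCF (median 5360), a log2 fold change of 0.18 with a 95% interval from 0.04 to 0.32 (limma adjusted p = 0.0576, from 0.0331 to 0.293 over its alternatives). The ratio of the second to the first was higher with SCF by 0.34 on the log2 scale (exact permutation p = 0.00866, adjusted p = 0.026 over the 9 such ratios). The difference no longer passed without IL3+SCF replicate 1, 2, 3 or 6 (adjusted p = 0.052 in each case) or with quantile normalization (0.0584), in a range from 0.013 to 0.075 over its alternatives. The Lcp2 transcript therefore has no settled direction on these arrays.

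Grap2 encodes GADS, the bridge between LAT and SLP-76. Probe set 1420685_at had signals from 464 to 566 on the IL3 arrays (median 492) and from 81.7 to 233 on the SCF arrays (median 155). Every SCF value lay far below the lowest IL3 value, and the SCF arrays differed more among themselves, with a mean of 158 ± 58.8 against 505 ± 40.03 in IL3 (SD, n = 6). The log2 fold change was -1.66 ± 0.20, with a 95% interval from -2.09 to -1.23 (adjusted p = 5.755e-05), so the level in IL3 was 3.15 times that with SCF on the scale of signal plus 16. On IL3+SCF replicate 3 the signal was dim. The other Grap2 probe set (1460280_at) was dim on all 12 arrays, at 1.92 to 75.4 in IL3 and 3.27 to 37.0 with SCF, and gives no second reading.

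Clnk encodes MIST, a relative of SLP-76 found in mast cells and NK cells. Its 1 probe set (1420463_at) had signals from 3733 to 4263 in IL3 (median 4066) and from 2577 to 3722 with SCF (median 3013). The groups were apart by a narrow margin, between 3733 on IL3 replicate 6 and 3722 on IL3+SCF replicate 4. The log2 fold change was -0.42 ± 0.09 (95% interval -0.62 to -0.23, adjusted p = 0.00325).

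Plcg1 encodes phospholipase C gamma 1, the isoform that docks on LAT. Its brightest probe set (1435149_at) had signals of 20854 to 25791 in IL3 (median 23195) and 22501 to 25399 with SCF (median 24590). The groups overlapped, and the log2 fold change of 0.07 had a 95% interval from -0.06 to 0.20. The dimmest (1450360_at), with 136 to 264 in IL3 (median 179) and 201 to 294 with SCF (median 268), was called higher at 0.42 ± 0.15 (adjusted p = 0.0475), with overlapping groups. That call lay close to the threshold and was lost in 16 of the 22 alternatives in which the probe set was tested (adjusted p from 0.0111 to 0.198 over the 22). Among them were the fits that left out IL3 replicate 3, 4, 5 or 6, and those that left out IL3+SCF replicate 1, 3, 4 or 5 (adjusted p between 0.0681 and 0.0959). The third probe set (1442963_at) had a log2 fold change of 0.14 (adjusted p = 0.513).

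Plcg2 encodes phospholipase C gamma 2, the isoform also used by B cells and platelets. Its signals were 2474 to 3441 in IL3 (median 2659) and 2057 to 2824 with SCF (median 2168), with overlap from IL3+SCF replicates 1 and 4. The log2 fold change was -0.26 ± 0.10 (95% interval -0.48 to -0.05), which did not pass (adjusted p = 0.0637). Without IL3+SCF replicate 1 it was -0.32 and passed (adjusted p = 0.0198, in a range up to 0.132 over its alternatives), and it also passed with quantile normalization, a 60th percentile filter, trend and robust eBayes and array weights.

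Vav1 encodes the exchange factor that activates Rac GTPases and supports the phospholipase step. Its 2 probe sets moved apart. The brighter (1422932_a_at, the suffix a marking probes shared by transcript variants of a gene) had signals of 3588 to 4151 in IL3 (median 3698) and 3908 to 4457 with SCF (median 4094). Its log2 fold change of 0.13 ± 0.06 did not pass (adjusted p = 0.0932), and without IL3 replicate 5 it was 0.16 and passed (adjusted p = 0.0322, in a range up to 0.41 over its alternatives). The dimmer (1440300_at) had 709 to 1041 in IL3 (median 881) and 530 to 654 with SCF (median 581). There every SCF array lay below every IL3 array, with a log2 fold change of -0.55 ± 0.09 (95% interval -0.75 to -0.35, adjusted p = 0.0006608).

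The disagreement between the Vav1 probe sets was itself larger than the spread between arrays. The log2 ratio of the dimmer to the brighter was -2.11 ± 0.15 in IL3 and -2.80 ± 0.11 with SCF (SD, n = 6), without overlap, a difference of -0.69 (two-sided exact permutation p = 0.002165, which is the lowest that 6 against 6 arrays allow, and adjusted p = 0.00974 over 9 ratios). It passed in each of the 18 alternatives run, and ranged from -0.73 to -0.63. These ratios do not say which probe set follows the transcript that encodes the protein.

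Rasgrp1 encodes the diacylglycerol-activated Ras exchange factor best known from T cells. Of its 4 probe sets 2 were above the dim level on every array, and both fell. The brightest (1434295_at) had signals of 3906 to 5160 in IL3 (median 4614) and 2273 to 2741 with SCF (median 2438). The groups were far apart, with a log2 fold change of -0.91 ± 0.08 (95% interval -1.08 to -0.73, adjusted p = 6.476e-06), the smallest adjusted p of the 19 probe sets. Probe set 1431749_a_at had 453 to 536 in IL3 (median 485) and 229 to 383 with SCF (median 280), a log2 fold change of -0.72 ± 0.10 (adjusted p = 0.0002114). Here too no SCF array reached the IL3 range.

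The remaining Rasgrp1 probe sets were close to the dim level and entered the test mainly through the IL3 arrays, so that they add no support to the fall. Probe set 1450143_at had 96.9 to 148 in IL3 and 53.9 to 85.3 with SCF, where it was dim on 5 of 6 arrays and its level was not well measured. Probe set 1421176_at had 67.4 to 141 in IL3 and 56.3 to 92.7 with SCF, dim on 1 IL3 and 4 SCF arrays, with overlap and a log2 fold change of -0.42 that did not pass (adjusted p = 0.0512). It passed without IL3 replicate 1 (adjusted p = 0.0095) and without IL3+SCF replicate 1 (0.0366), in a range up to 0.151 over its alternatives.

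Rasgrp4 encodes the RasGRP protein of mast cells and other myeloid cells. Its signals were 3670 to 5755 in IL3 (median 4285) and 3828 to 4644 with SCF (median 4408), so that the SCF range lay inside the IL3 range. The log2 fold change was -0.03 with a 95% interval from -0.25 to 0.18 (adjusted p = 0.837), and its sign changed under 3 alternatives.

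For the 3 genes that fell on their brightest probe set, the 250 bases before the annotated start are shown from the RefSeq promoter table (GRCm38.p6), to give the sequence context of the transcripts that moved the same way. Capitals mark GATAA in either direction, the core read by GATA factors, and TTCNNNGAA, the spaced palindrome read by STAT factors. The windows are chr15:80623233-80623482 (plus strand) for Grap2, chr2:117342878-117343127 (minus strand) for Rasgrp1 and chr5:38876694-38876943 (minus strand) for Clnk, each written 5′ to 3′. The Grap2 start used there lies 50.9 kb downstream of the outermost start of its gene model, and the Clnk start 0.165 kb downstream. The Grap2 window thus lies inside its gene model, and the Clnk window lies partly inside.
Grap2: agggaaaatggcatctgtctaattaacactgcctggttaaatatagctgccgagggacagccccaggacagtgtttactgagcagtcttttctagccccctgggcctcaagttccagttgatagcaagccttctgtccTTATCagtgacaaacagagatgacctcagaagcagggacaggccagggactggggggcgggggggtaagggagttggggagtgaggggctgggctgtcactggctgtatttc
Rasgrp1: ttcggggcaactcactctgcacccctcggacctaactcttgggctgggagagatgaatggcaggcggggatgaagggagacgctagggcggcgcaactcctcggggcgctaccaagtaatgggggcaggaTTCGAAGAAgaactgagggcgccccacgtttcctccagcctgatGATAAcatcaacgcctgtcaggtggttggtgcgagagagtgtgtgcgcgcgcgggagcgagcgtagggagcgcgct
Clnk: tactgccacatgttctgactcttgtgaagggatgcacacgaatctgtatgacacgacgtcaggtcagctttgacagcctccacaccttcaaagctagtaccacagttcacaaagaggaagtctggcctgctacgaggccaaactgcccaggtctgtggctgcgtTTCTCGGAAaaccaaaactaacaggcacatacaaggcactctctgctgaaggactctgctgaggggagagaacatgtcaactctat

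Of the 10 genes 8 had a window in that table, and Lat2 and Rasgrp4 had none there. GATAA was present in 4 of the 8 windows, those of Grap2, Rasgrp1, Lcp2 and Plcg2, and in 22.6% of 32851 windows of the same length. TTCNNNGAA was present in 2, those of Rasgrp1 and Clnk, against 7.02% of all windows. CACGTG, an E-box read by MITF and related factors, was present in 2, those of Lat and Plcg2, against 6.02%. AGGAAG, an ETS core, was present in the windows of Lat, Lcp2, Clnk and Vav1, against 29.5%. TGTGGT, a RUNX core, was present in that of Clnk alone, against 14.0%. Both strands were searched, and matches of different motifs could overlap. A match is a string of letters and not a measured site.

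Some of the relatives and partners within the complex changed unequally. The log2 ratio of Rasgrp1 to Rasgrp4 signal was 0.06 ± 0.26 in IL3 and -0.81 ± 0.15 with SCF (SD, n = 6), without overlap, a difference of -0.87 (exact permutation p = 0.002165, adjusted p = 0.00541 over 5 ratios). The ratio of Lcp2 to Grap2, the pair that binds LAT as a unit, rose from 4.82 ± 0.13 to 6.32 ± 0.52, also without overlap, a difference of 1.5 with the same p-values. Since each probe set has its own brightness, these ratios mean something only as differences between the groups. Rasgrp1 and Grap2 were each called lower by themselves, so these ratios are no separate support for their falls.

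The ratio of Plcg1 to Plcg2 was higher with SCF by 0.34 on the log2 scale (exact permutation p = 0.0195, adjusted p = 0.0325), and that of Lcp2 to Clnk by 0.27 (p = 0.0303, adjusted p = 0.0379), both with overlapping groups. The first no longer passed when IL3 replicate 1 or 3 was left out, nor when IL3+SCF replicate 2, 3 or 5 was (adjusted p from 0.0514 to 0.0649). The second no longer passed when any IL3 array but replicate 5 was left out, nor when IL3+SCF replicate 2, 3 or 5 was (0.0505 to 0.0779). The ratio of Lat to Lat2 differed by 0.15 and did not pass (exact permutation p = 0.0541), but it passed at 0.20 without IL3 replicate 5 (exact permutation, adjusted p = 0.00361, against a range up to 0.138 over the alternatives).

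**Figure D3:**
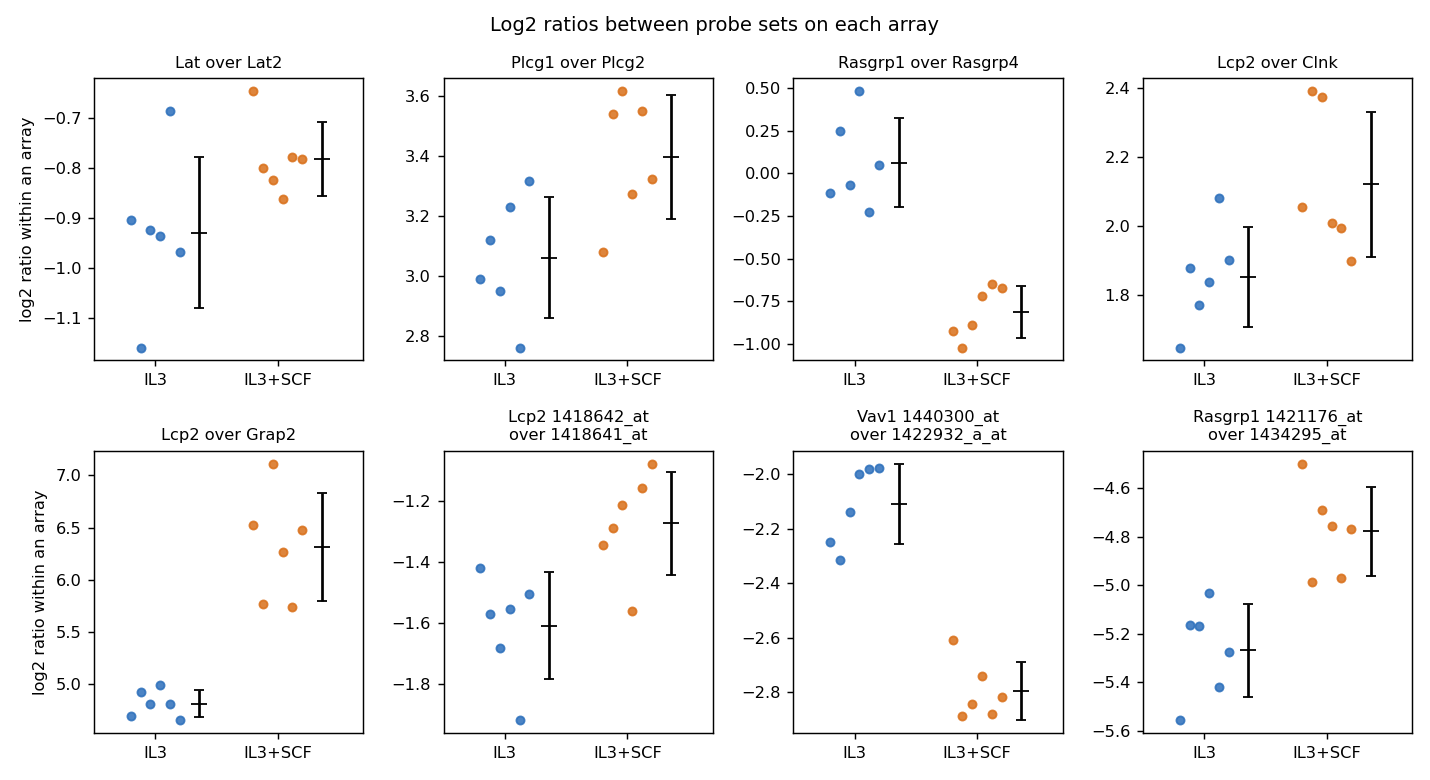
Log2 ratio between the signals of 2 probe sets on each array, IL3 in blue and IL3+SCF in orange, with group mean and SD in black. The first 5 panels set relatives or partners against each other on their brightest probe sets, and the last 3 set a dimmer probe set against the brightest of the same gene; the groups are fully apart for Rasgrp1 over Rasgrp4, Lcp2 over Grap2, and the Vav1 panel. The groups are also apart in the last Rasgrp1 panel, but it uses a probe set dim on 4 SCF arrays, and nothing is read from it.

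The other genes around the complex were read from 7 lists. Of 79 genes listed 58 were tested, each on its brightest probe set, and 16 rose and 4 fell (34.5% called, against 33.0% of all genes). Of all genes 17.5% rose and 15.5% fell, the shares to read beside the count of each list below. The lists are small, and none was tested against these shares. The median log2 fold change of the 58 was 0.07, against 0.02 over all genes. For 2 of the 20 called genes, Crk and Itpkb, another probe set was called in the opposite direction, and 16 further genes were called only on a dimmer probe set.

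Among cytosolic adaptors 6 of 13 rose, 1 fell and 6 did not pass, with a median of 0.16. Skap1, the SKAP55 adaptor of integrin signalling, rose from a signal of 351 ± 153 to 799 ± 56.4, a log2 fold change of 1.27 ± 0.25 (adjusted p = 0.00185). Nck1, an adaptor that links SLP-76 to actin, rose by 0.49 ± 0.08 but did not pass when its probe sets were averaged (0.11, adjusted p = 0.201). Gab2, the scaffold of the parallel FYN and PI3-kinase branch, fell by 0.26 ± 0.06 but did not pass with median centring (adjusted p = 0.0525). Of the transmembrane relatives of LAT only Pag1, which anchors the kinase CSK, was tested, and it did not pass on its brightest probe set (0.14, adjusted p = 0.0839) while the other 3 were called lower, at -0.78 to -0.58.

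Among the other phospholipases C 3 of 6 rose and 0 fell. The 3 were beta isoforms, which answer to G proteins, but the beta isoform Plcb1 did not pass (-0.08, limma adjusted p = 0.493). Of the 4 other Plcb1 probe sets tested, 1 was called lower. Plcb4 rose by 0.80 ± 0.16, Plcb3 by 0.20 ± 0.06 and Plcb2 by 0.35 ± 0.10. Plcb2 no longer passed without IL3+SCF replicate 6, without either pair of IL3 arrays and with no filter.

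Of 10 genes of Ras and its regulators 3 rose and 0 fell, with a median of 0.10. Sos1, the other main Ras exchange factor, rose by 0.36 ± 0.05 but did not pass when its probe sets were averaged (0.15, adjusted p = 0.158). Rasal3, a Ras GTPase-activating protein of blood cells, rose by 0.37 ± 0.10, but not beyond the threshold with median centring (adjusted p = 0.0801) and without IL3 replicates 3 and 6 (0.0662). Rasgrp3, the other relative of the 2 RasGRP members tested, was near the dim level at 68.2 ± 39.4 in IL3 and 107 ± 48.4 with SCF, and did not pass (0.62 ± 0.42, adjusted p = 0.303). Of 9 genes that handle IP3 and diacylglycerol 3 rose and 1 fell. Itpr3, an IP3 receptor that releases stored calcium, had a signal of 78.6 ± 21.6 in IL3, where it was dim on 4 of 6 arrays, and of 216 ± 27.2 with SCF. It is 1 of the 3 and was tested only through its SCF arrays, so that its call supports nothing and its fold is not read. Dgka, the kinase that removes diacylglycerol, rose by 0.52 ± 0.08. Itpkb, an IP3 kinase, fell by 0.37 ± 0.07, but its other probe set was called higher at 0.45.

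Of 13 negative regulators, each on its brightest probe set, 0 rose, 2 fell and 11 did not pass. Ptpn22, a phosphatase that restrains antigen receptor signalling, fell from 2962 ± 353 to 1314 ± 126, a log2 fold change of -1.16 ± 0.09 (adjusted p = 2.473e-06). Dok1, a docking protein for Ras inhibitors, fell by 0.33 ± 0.09 (adjusted p = 0.0168), with overlapping groups. Inpp5d, the SHIP1 lipid phosphatase, and Cblb, a ubiquitin ligase, had log2 fold changes of 0.07 and 0.04, which did not pass, although 2 dimmer Cblb probe sets were called higher. Dimmer probe sets were also called higher for Cbl (1) and Ubash3b (2), and lower for Sla (3) and Ubash3a (1). Ubash3a was dim on 3 SCF arrays even on its brightest probe set, so that its call is not read.

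**Figure D4:**
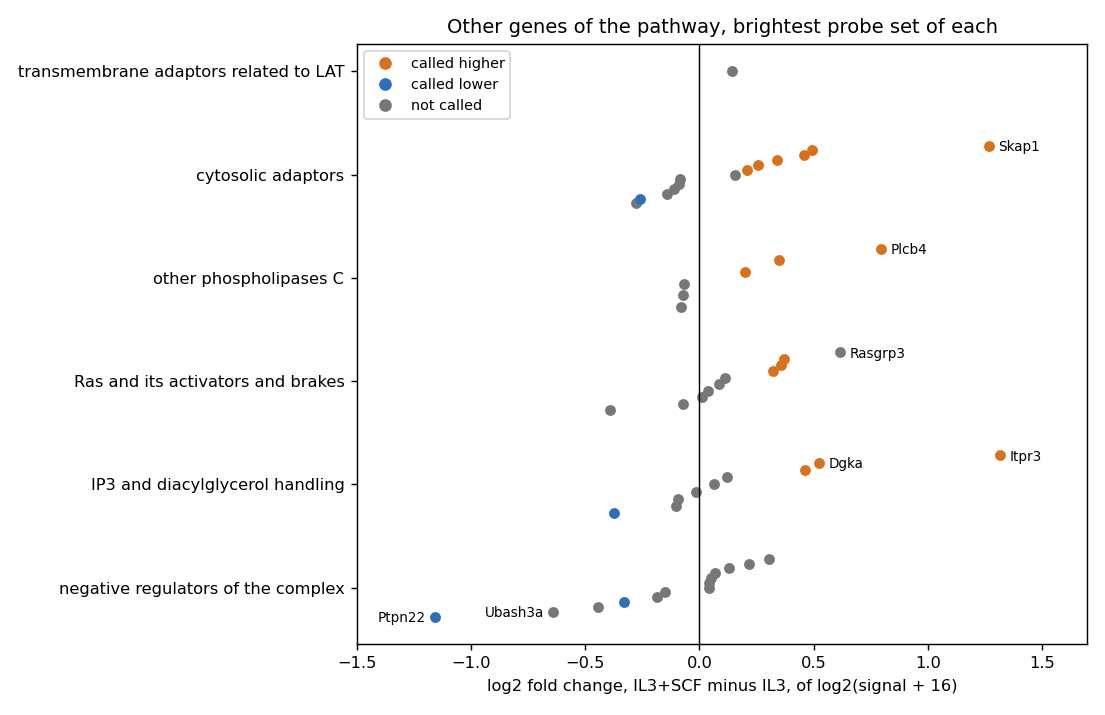
Log2 fold change (IL3+SCF minus IL3) of 52 of the 58 other pathway genes tested, in 6 of the 7 lists, each on its brightest probe set, by list, with genes called higher in orange, called lower in blue and not called in grey. Genes beyond 0.5 in either direction are named; Skap1 (1.27) lies far right and Ptpn22 (-1.16) farthest left, and the position of Itpr3 rests on an IL3 level dim on 4 of 6 arrays.

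T cells and platelets also express much of this complex, and their markers were read beside the falls of Grap2 and Rasgrp1. Of 6 T cell markers measured 1 was tested, and it did not pass; Cd3d, Cd3g and Cd28 were dim on all 12 arrays. Their summed signal was 309 to 567 in IL3 and 377 to 586 with SCF. Of 5 platelet markers 2 were tested and 0 passed, with Ppbp dim throughout, and their sum was 9671 to 12869 in IL3 and 8244 to 9973 with SCF. Neutrophil markers (7 measured, 1 tested, 0 called, Ltf dim throughout) summed to 187 to 6476 in IL3 and 163 to 298 with SCF. The 2 largest of them in IL3, S100a9 and S100a8, were not tested, so that the 0 called says nothing of them. Their means were 1192 and 720 in IL3, each above the dim level on 4 of 6 arrays. With SCF they were 24.6 and 31.3, dim on all 6. Monocyte markers (5 measured, 3 tested, Cd68 higher by 1.28 and Cx3cr1 at -3.90, Mpeg1 dim throughout) summed to 5352 to 9793 and 1939 to 2368. B cell markers (5 measured, 1 tested, 0 called, Cd79b, Ms4a1 and Pax5 dim throughout) summed to 97.1 to 1011 and 272 to 922. Basophil markers (3 measured and tested, Cd200r3 higher and Itgb7 lower) summed to 26092 to 32166 and 26174 to 29124. Eosinophil markers (4 measured, 2 tested, 0 called, Epx dim throughout) summed to 976 to 1575 and 652 to 1258. Few genes carried some of these sums. Itga2b, with a mean of 10022 in IL3 and 8819 with SCF, made up most of the platelet sum. Cx3cr1, with 6563 in IL3 and 417 with SCF, made up most of the monocyte sum in IL3. Cd200r3, with 15944 in IL3 and 19710 with SCF, and Itgb7, with 10970 and 6999, made up most of the basophil sum. Itga2b, Cd200r3 and Itgb7 were above the dim level on all 12 arrays, in cultures labelled as highly pure mast cells. Whether their signal came from the mast cells themselves was not tested. The platelet and basophil sums are therefore not read as amounts of those cells. The part of any cell type other than mast cells in the results was not tested.

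The median signal of the arrays lay between 150 and 202, and their mean correlation within a group between 0.972 (IL3 replicate 4) and 0.988. Leaving out IL3 replicates 4 and 5, of which the first stood apart and the second was highest for Lat, Plcg2 and Rasgrp4, left Grap2 at -1.64 and the brightest Rasgrp1 probe set at -0.84. Leaving out IL3 replicates 3 and 6, where the neutrophil marker sums were highest (5478 and 6476), left them at -1.65 and -0.96. All 6 probe sets called lower passed in both cases. Among them was the Rasgrp1 probe set that was dim on most SCF arrays, and its passing supports nothing. The IL3 arrays kept in the second case still had neutrophil sums from 187 to 1001, against 163 to 298 with SCF. The part of neutrophils in the falls was therefore not tested by leaving these arrays out.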

How the data were processed

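Affymetrix arrays of 6 IL3 and 6 IL3+SCF samples were used. As deposited, the values are intensities of probe sets on a linear scale. The submitters' processing notes list GCOS 1.4, and 50 ng of RNA was amplified per the labels' protocols. The background method is not given in the sources used here, nor is the scaling target; the 2% trimmed mean was 1238 to 1240 on all arrays. The intensities were used as scaled by the authors, as log2(signal + 16), which understates changes of dim probe sets, and 64 control probe sets were left out. A probe set was tested if it exceeded its array's 40th percentile on at least 6 arrays. The test was limma 3.58.1 (R 4.3.3), a plain eBayes fit of group without covariates and two-sided, with Benjamini-Hochberg adjustment over all probe sets tested and a threshold of 0.05. Probe sets with several symbols (932) or none (9160) were not named. Ratios within arrays were compared with exact permutation tests, two-sided. The fit was tested on simulated data, where it recovered 44.78% of log2 changes of 0.5, 94.03% of 1 and 100% of 2, with 10 false calls. Far fewer probe sets were changed there than were called in the data. Changes of 0.5 or less can thus be missed. Python 3.11.15 with matplotlib 3.10.9 made the plots.

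The members, lists and motifs were chosen with earlier results of these data known. All member probe sets are named. From each list of other genes came at most 2 rises and 2 falls, the largest among those called. Where none was called, the gene with the smallest p was taken. Further genes (Crk, Plcb1, Plcb3, Rasgrp3, Inpp5d, Cblb, Cbl, Ubash3a, Ubash3b, Sla) were named after their values were seen. The genes of 1 of the 7 lists are counted in the totals and are not reported here. The alternatives covered scaling (quantile, or each array centred on its median), pseudocounts of 1 and 64, filters (none, or the 60th percentile), eBayes with trend and robust, a block for the replicate number, array weights, the mean over a gene's probe sets, and fits without each array in turn or without 2 pairs of IL3 arrays, over the same probe sets. The number of arrays limits the precision. No pair of arrays held identical values.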

Additional observations from a re-analysis of the deposited data

Results flagged for a closer look

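Among 50 groups of 6 values examined (20 probe sets and 5 ratios in both cultures), 2 had an array far from the others, and chance flags about 1 in 20. Both were IL3 replicate 5. For Lat its signal of 11360 stood above the next IL3 value of 8980, a gap of 0.643 of the whole range of the group. For Plcg2 its signal of 3441 stood above the next value of 2802, a gap of 0.661 of the range.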

How the results depend on the processing

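The 6 probe sets called lower passed in the same direction in every alternative in which they were tested. For the Rasgrp1 probe set among them that was dim on most SCF arrays, this supports nothing. The count of member probe sets called lower ranged from 6 to 8, and the counts over all probe sets stayed within 1.5 times. The count called higher, 1 in the report, was 0 with quantile normalization, with median centring, with no filter, without IL3 replicates 3 and 6 and with the replicate block, 2 with trend and robust eBayes and 3 with array weights, and ranged from 0 to 2 with 1 array left out. Fewer pathway genes fell on the brightest probe set (4) than with a gene's probe sets averaged (11). With 1 array left out the log2 ratio differences ranged from 0.10 to 0.20 for Lat over Lat2, 0.28 to 0.40 for Plcg1 over Plcg2 and 0.21 to 0.31 for Lcp2 over Clnk. Without IL3 replicates 4 and 5 Lat over Lat2 passed at 0.21 (exact permutation, adjusted p = 0.00794), and without 3 and 6 Lcp2 over Clnk no longer passed at 0.26 (adjusted p = 0.119). The log2 fold change of Rasgrp4 changed sign to 0.0074 with array weights and ranged from -0.085 to 0.045 with 1 array left out, where it was above 0 without replicate 5 of either culture. The difference between Plcg1 1442963_at and its brightest probe set changed sign to -0.063 without IL3 replicates 4 and 5 and ranged from -0.034 to 0.16 with 1 array left out, where it was below 0 without IL3 replicate 5 or IL3+SCF replicate 6. With the mean of all probe sets Pag1 was -0.46 and Itpkb 0.037. The cause was not tested. Whether the replicate numbers pair the samples is not known. Deviations of same-numbered arrays correlated between -0.242 and 0.31, but differently numbered arrays were not compared, so these values do not settle it. With the replicate block 24.3% of all probe sets were called, against 30.9% without it. With the replicate block Plcg1 1450360_at no longer passed (limma adjusted p = 0.0589), nor did Plcb2, Rasal3 and Dok1, and 11 pathway genes rose and 4 fell.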
